A study of Homo sapiens with 6 samples.

Results

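The carcinoembryonic antigen family was represented by 5 genes, CEACAM1, CEACAM5, CEACAM6, CEACAM7 and CEACAM19, taken by gene symbol from the 19202 genes counted. They were selected on their counts in resistant and control cells, so their differences between these groups are a description, with no p-value, and their calls in the fit over all genes are set beside the share of all genes called. RNA was sequenced from sorafenib-resistant MHCC97H cells (SR, 3 libraries) and from sorafenib-sensitive MHCC97H control cells (3 libraries). MHCC97H, a human liver cancer line, is known for its strong tendency to metastasise in mice, and sorafenib inhibits several kinases and is given in advanced liver cancer. The labels used here do not say how resistance was raised, whether the resistant cells were 1 clone or a pool, or whether sorafenib was present at harvest. Nor do they say if each replicate came from its own culture, so p-values reflect only how these libraries vary, and that variation may be technical.

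CEACAM proteins are cell-surface adhesion molecules of the immunoglobulin superfamily. CEACAM1 crosses the membrane and, in its long form, carries inhibitory tyrosine motifs; in the liver it lies on the bile canalicular face of hepatocytes, and in mice it promotes the clearance of insulin. CEACAM5 (carcinoembryonic antigen, the serum marker of colorectal cancer), CEACAM6 and CEACAM7 are held on the outer face of the membrane by a glycosylphosphatidylinositol (GPI) anchor and are mainly known from epithelia of the gut. CEACAM19 is a distant transmembrane relative.

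The libraries held 3745068 to 4961907 counts in resistant and 1913469 to 5345272 counts in control cells. Of the 10 hepatocyte and hepatocellular carcinoma markers, KRT8 and KRT18 were abundant, at 1100 ± 101 and 758 ± 72.6 CPM (counts relative to the library's size, scaled by TMM) in resistant cells, against 1276 ± 154 and 810 ± 101 CPM in control cells (SD, n = 3 each). AFP was at 3.29 ± 0.450 CPM in resistant and 2.82 ± 1.94 CPM in control cells, and APOA1 and TTR averaged below 1 CPM in both groups, while ALB, the gene of serum albumin, was at 5.53 ± 3.50 CPM in resistant and 17.3 ± 3.75 CPM in control cells (SD, n = 3 each). APOB, SERPINA1, TF and FGB averaged 2.98 to 18.1 CPM in resistant and 8.03 to 27.2 CPM in control cells. Of the 8 markers tested, edgeR called 0 higher and ALB, APOB and SERPINA1 lower (37.5%, against 12.3% of all tested genes). The 8 had a median log2FC of -0.68, and the call of SERPINA1 was lost in 4 of 15 alternatives. Summed leukocyte markers lay at 8.18 to 12.9 CPM in resistant and 8.23 to 12.03 CPM in control libraries, fibroblast markers at 10.3 to 36.6 and 14.9 to 34.9 CPM, and cholangiocyte markers at 118 to 142 and 113 to 141 CPM. Endothelial markers summed to 40.6 to 129.7 CPM in resistant and 50.2 to 68.2 CPM in control libraries. Resistant replicate 3 stood apart there, with VWF at 26.2 CPM and CDH5 at 19.2 CPM, against at most 1.41 CPM in the other resistant libraries and 3.09 CPM in control libraries. It also had the fibroblast marker COL1A2 at 13.9 CPM, against 0 CPM in the other resistant libraries and at most 4.11 CPM in control libraries. The summed fibroblast markers overlapped between the groups. No gene of these 4 lists was at 0 in all 6 libraries. Member values are therefore given with and without resistant replicate 3, and the part of other cells in them was not tested.

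In GENCODE 29 on GRCh38 all 5 genes lie on chromosome 19. CEACAM7 (Entrez 1087, minus strand, 41673307 to 41706976), CEACAM5 (Entrez 1048, plus strand, 41708585 to 41729798) and CEACAM6 (Entrez 4680, plus strand, 41750977 to 41772208) are neighbours, CEACAM1 (Entrez 634, minus strand, 42507304 to 42561234) lies further along, and CEACAM19 (Entrez 56971, plus strand, 44662278 to 44684359) lies apart. Which build the authors counted on is not stated in the labels. The annotation also has a read-through gene on the plus strand, AC243967.1, that overlaps the spans of CEACAM5 and CEACAM6, and antisense genes over CEACAM6, CEACAM1 and CEACAM19. Reads in the bases shared with the read-through gene cannot be told apart from those of CEACAM5 and CEACAM6, and without known use of strand neither can those of the antisense genes. CEACAM19 shares 1306 bases of its span with PVR on the same strand.

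The promoters are shown because CEACAM5 and CEACAM6 were both lower in resistant cells, and so that the related genes can be compared base by base. The 4 sequences are from RefSeq (GRCh38.p14) and run from 250 bases before to 50 bases after the start on the gene's own strand. They stand at chr19:41708376-41708675 (plus strand) for CEACAM5, chr19:41755280-41755579 (plus strand) for CEACAM6, chr19:42528432-42528731 (minus strand) for CEACAM1 and chr19:41688221-41688520 (minus strand) for CEACAM7, and CEACAM19 had none to print. The windows of CEACAM6, CEACAM1 and CEACAM7 lie inside the GENCODE spans given above and not at their ends, while that of CEACAM5 covers the start of its span. The RefSeq starts were not compared with the starts of single GENCODE transcripts. Capitals mark the E-box CACGTG and the GC box GGGCGG or its reverse complement CCGCCC.
CEACAM5: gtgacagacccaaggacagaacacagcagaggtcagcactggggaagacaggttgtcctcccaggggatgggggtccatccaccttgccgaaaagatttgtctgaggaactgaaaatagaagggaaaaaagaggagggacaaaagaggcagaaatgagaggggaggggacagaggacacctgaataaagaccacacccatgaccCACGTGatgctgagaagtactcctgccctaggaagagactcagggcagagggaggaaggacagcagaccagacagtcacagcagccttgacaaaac
CEACAM6: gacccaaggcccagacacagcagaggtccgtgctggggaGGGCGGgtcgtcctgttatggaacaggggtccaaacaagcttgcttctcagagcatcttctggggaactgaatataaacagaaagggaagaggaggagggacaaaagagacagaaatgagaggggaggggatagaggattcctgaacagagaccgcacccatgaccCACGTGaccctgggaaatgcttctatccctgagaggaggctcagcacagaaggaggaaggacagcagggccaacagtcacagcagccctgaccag
CEACAM1: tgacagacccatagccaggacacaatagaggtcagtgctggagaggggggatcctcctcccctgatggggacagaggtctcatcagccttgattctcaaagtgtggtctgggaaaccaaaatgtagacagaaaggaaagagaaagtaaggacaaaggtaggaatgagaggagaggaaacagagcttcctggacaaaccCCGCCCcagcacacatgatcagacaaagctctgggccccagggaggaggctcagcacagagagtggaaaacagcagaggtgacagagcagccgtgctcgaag
CEACAM7: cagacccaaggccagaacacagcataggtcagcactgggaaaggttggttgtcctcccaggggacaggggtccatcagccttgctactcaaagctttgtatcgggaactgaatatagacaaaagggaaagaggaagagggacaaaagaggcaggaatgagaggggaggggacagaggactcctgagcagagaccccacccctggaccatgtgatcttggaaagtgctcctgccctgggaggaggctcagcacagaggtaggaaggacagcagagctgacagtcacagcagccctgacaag

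In a global alignment CEACAM5 and CEACAM7 shared 249 of 300 bases (83.0%), CEACAM6 and CEACAM7 243 (81.0%) and CEACAM5 and CEACAM6 230 (76.7%). CEACAM1 shared 203 bases (67.7%) with CEACAM5, 214 (71.3%) with CEACAM6 and 222 (74.0%) with CEACAM7. The palindromic E-box CACGTG began 46 bases before the start of CEACAM5 and 45 bases before that of CEACAM6, and the windows of CEACAM1 and CEACAM7 had none. Of 35116 RefSeq promoter windows of this length, 7.26% held CACGTG. The GC box was found once in CEACAM6, 211 bases before the start, and once on the minus strand in CEACAM1, 52 bases before it. It was found in 45% of all windows. TATAAA (11.5% of all windows) occurred once in CEACAM6, 139 bases before the start, and CCAAT (34.6%) in none of the 4. The core of the interferon-stimulated response element, in 3.57% of all windows, occurred once on the minus strand of CEACAM1, 116 bases before the start, and in none of the other 3. Each of these 5 motifs was searched on both strands. No 2 of them overlap in these windows. A match is only a match of letters.

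CEACAM6 carried most of the family's RNA. It took 83.8%, 82.8% and 87.7% of the counts of the 22 CEACAM and PSG genes in resistant replicates 1, 2 and 3, against 90.2%, 85.3% and 87.9% in control replicates 1, 2 and 3 (the least certain, resistant replicate 1, has a 95% Wilson interval of 81.96 to 85.49%, for counting error only). Per kilobase of exon its level was 152 ± 15.7 CPM in resistant and 286 ± 28.7 CPM in control cells (SD, n = 3 each). At that level it stood above 97.0 to 97.7% of the 10768 tested genes with a length in resistant libraries and above 98.8 to 99.0% in control libraries.

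In CPM, CEACAM6 was at 379.5, 392.8 and 458.5 in resistant replicates 1, 2 and 3, against 820.6, 683.4 and 814.4 in control replicates 1, 2 and 3. Every resistant library lay below every control library, with the closest pair being resistant replicate 3 and control replicate 2. The means were 410.3 ± 42.3 and 772.8 ± 77.5 CPM (SD, n = 3 each), a level 1.88-fold lower in resistant cells. The log2 fold change (log2FC, resistant over control) came to -0.91 (standard error, SE, 0.09), or to -0.99 (SE 0.11) without resistant replicate 3. CEACAM6, when overexpressed, is known to protect epithelial cells from death after detachment.

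CEACAM5 was nearly gone from the resistant cells. It had 4, 0 and 8 counts in resistant replicates 1, 2 and 3, against 42, 132 and 64 counts in control replicates 1, 2 and 3. As CPM these were 1.08, 0 and 1.64 in resistant and 21.6, 24.9 and 18.8 in control libraries. The 0 counts of resistant replicate 2 allow up to 3 counts, or 0.705 CPM. The groups did not overlap, and every control library was far above every resistant one. The means were 0.906 ± 0.832 CPM in resistant and 21.7 ± 3.04 CPM in control cells (SD, n = 3 each), a level 24.0-fold lower in resistant cells. The log2FC was -4.51 (SE 0.47), resting on 12 counts over the resistant libraries. It was -5.33 (SE 0.57) without resistant replicate 3, and limma-voom gave -5.15.

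**Figure D1:**
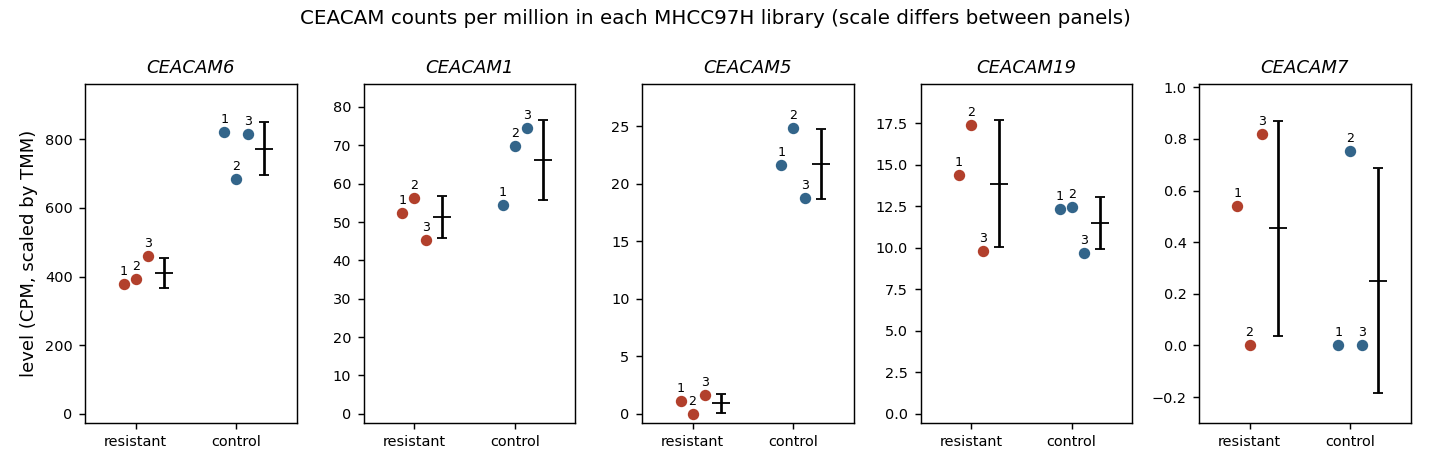
CPM of each CEACAM gene (vertical axes, a scale for each panel) in the 3 resistant and the 3 control libraries, numbered by replicate, with the mean and SD as black bars. CEACAM6 and CEACAM5 separate the groups, while CEACAM1, CEACAM19 and CEACAM7 overlap.

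CEACAM1, the transmembrane member of the hepatocyte, had 52.2, 56.2 and 45.4 CPM in resistant replicates 1, 2 and 3, against 54.5, 69.7 and 74.5 CPM in control replicates 1, 2 and 3. The groups overlapped, because control replicate 1 lay below resistant replicate 2. The means were 51.3 ± 5.45 and 66.2 ± 10.4 CPM (SD, n = 3 each), and the log2FC was -0.39 (SE 0.15), or -0.29 (SE 0.18) without resistant replicate 3. The counts per gene do not separate the long and short forms of CEACAM1, which differ in the inhibitory tail.

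CEACAM19 had 14.3, 17.4 and 9.82 CPM in resistant replicates 1, 2 and 3, against 12.3, 12.4 and 9.68 CPM in control replicates 1, 2 and 3. Resistant replicate 3 lay within the control range and the other 2 resistant libraries above it. The log2FC was 0.27 (SE 0.31), and 0.48 (SE 0.34) without resistant replicate 3. CEACAM7 was at the edge of detection, with 2, 0 and 4 counts in resistant and 0, 4 and 0 counts in control replicates 1, 2 and 3. With so few counts no fold change is given.

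Of the 5 genes, 4 passed the filter on low counts and CEACAM7 did not. In edgeR's quasi-likelihood test over all 10804 tested genes CEACAM5 and CEACAM6 were called lower (adjusted p under 0.05), and CEACAM1 and CEACAM19 were not called. Of all tested genes 24.1% were called, 12.3% lower and 11.7% higher, and 18.9% had every resistant library below every control library. The contrast had guided the choice of the genes, and nothing is read from these calls. CEACAM1 was called lower in 4 of 15, namely library totals, limma-voom, halved counts and edgeR without control replicate 1.

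The order of levels per kilobase of exon differed between the groups. In resistant cells it was CEACAM6 (152 ± 15.7 CPM), CEACAM1 (13.8 ± 1.47), CEACAM19 (6.15 ± 1.69), CEACAM5 (0.312 ± 0.286) and CEACAM7 (0.182 ± 0.167). In control cells it was CEACAM6 (286 ± 28.7 CPM), CEACAM1 (17.9 ± 2.82), CEACAM5 (7.48 ± 1.05), CEACAM19 (5.10 ± 0.693) and CEACAM7 (0.101 ± 0.175; all SD, n = 3). CEACAM5 and CEACAM7 overlapped in resistant libraries. In control libraries CEACAM5, at 6.46 to 8.55 CPM per kilobase, lay above CEACAM19, at 4.30 to 5.52. In the ranking over all tested genes CEACAM5 stood above 0 to 3.37% of genes in resistant libraries and above 40.3 to 49.0% in control libraries. CEACAM5 passed the filter on low counts through its control libraries, at 18.8 to 24.9 CPM, against 0 to 1.64 CPM in resistant libraries. That filter had removed low genes from the ranking, so a low place in resistant libraries was largely set by it and nothing is read from that place. CEACAM1 stood above 60.0 to 65.8% in resistant and 65.2 to 72.9% in control libraries.

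**Figure D2:**
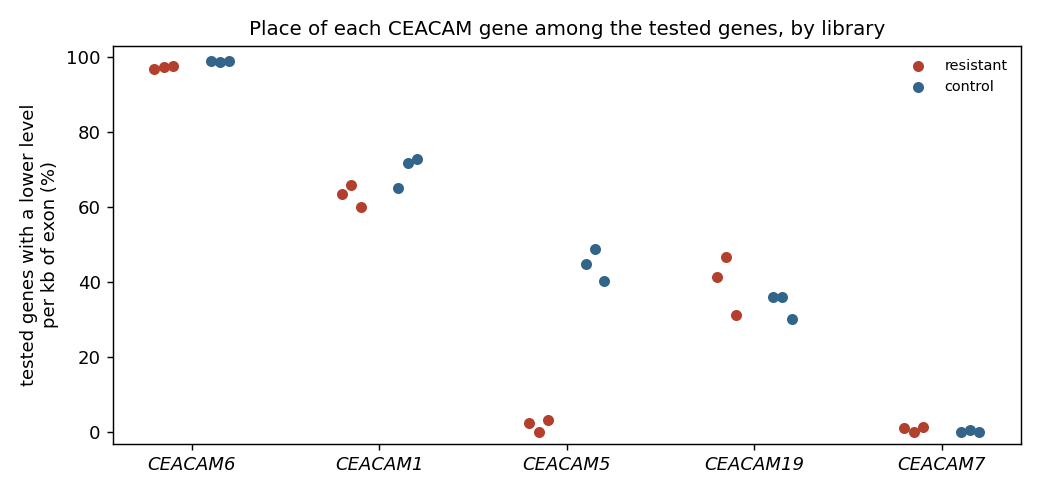
Percent of the 10768 tested genes with an exon length that had a lower level per kilobase than each CEACAM gene (vertical axis), for each resistant and control library. CEACAM6 lies at 97.0% or more in every library, while CEACAM5 lies at 3.37% or less in resistant and at 40.3% or more in control libraries. CEACAM5 passed the filter on low counts through its control libraries, so nothing is read from its low place in resistant ones.

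The members are similar enough in sequence to raise the question of shared reads. Of the 50-base windows along the longest coding transcript, 4.15% of those of CEACAM1, 3.26% of those of CEACAM5 and 4.60% of those of CEACAM6 also occurred in another CEACAM or PSG gene. For CEACAM7 and CEACAM19 the share was 0%. With 100-base windows it was 0.526% for CEACAM1, shared with CEACAM3, and 0% for the other 4 genes. The labels do not state the handling of reads that map to several genes. CEACAM6 was far above CEACAM5 in counts, and how many of the 12 resistant CEACAM5 counts came from CEACAM6 reads was not tested.

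The other 17 family genes in the table were close to silent. They were 7 further CEACAM genes and 10 pregnancy-specific glycoprotein (PSG) genes, which are placental relatives, and none passed the filter on low counts. Together they had 19, 35 and 33 counts in resistant replicates 1, 2 and 3, against 2, 54 and 32 counts in control replicates 1, 2 and 3. PSG9 had 0 counts in all 6 libraries. The granulocyte receptor CEACAM3 had 0, 2 and 0 counts in resistant and 0, 6 and 14 counts in control replicates 1, 2 and 3. CEACAM8, also a granulocyte marker, had 4 counts, all in control replicate 2. CEACAM21 with 5 counts and CEACAM4 with 6 had theirs only in that library too. CEACAM16 had 2 counts, CEACAM18 4 and CEACAM20 10 over the 6 libraries. PSG5 had most among the PSG genes, with 28 counts over the 6 libraries, followed by PSG1 with 20, PSG4 with 15, PSG11 with 13, PSG7 with 12, PSG2 with 10, PSG6 with 9, PSG8 with 8 and PSG3 with 7. No order between the groups can be read from counts this small.

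The genes around the CEACAM loci were taken as a set that the choice of the members had not used. Within 500 kb of a CEACAM gene 42 other genes were tested, of which 3 were called lower and 5 higher in edgeR (19% called, against 24.1% of all tested genes). Their median log2FC was 0.05, against -0.01 for all tested genes. Around CEACAM7, CEACAM5 and CEACAM6, 12 genes were tested, with 1 lower and 3 higher (33.3% called, against 24.1% of all tested genes). The closest tested gene, RPS19 (a protein of the small ribosomal subunit, whose reads may be shared with pseudogene copies), was higher, at 600.6 ± 56.5 CPM in resistant and 482.6 ± 45.9 CPM in control cells (SD, n = 3 each; adjusted p = 0.0103 in edgeR), a call lost without control replicate 2.

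On the CEACAM7 side of the cluster AXL, a receptor kinase of the TAM family, was higher (log2FC 1.57, SE 0.10, adjusted p = 7.61e-16 in edgeR) and the cytochrome P450 gene CYP2S1 lower (log2FC -0.86, SE 0.16, adjusted p = 7.82e-05). Further out on that side, 655 kb from CEACAM7, CYP2B6 was also lower (log2FC -3.62, SE 0.29, adjusted p = 1.35e-12 in edgeR). Of 71 tested genes within 1000 kb of a CEACAM gene, 6 were called lower and 9 higher (21.1% called, against 24.1% of all tested genes). On the RPS19 side the zinc finger gene ZNF574 was higher (log2FC 0.57, SE 0.18, adjusted p = 0.0142 in edgeR), with the call lost without resistant replicate 1 or control replicate 2. Near CEACAM1 7 genes were tested and 14.3% were called. There edgeR called the repressor gene CIC lower, with a log2FC of -0.37 (SE 0.13) and an adjusted p of 0.0342, but 6 of 15 alternatives did not. Near CEACAM19, 1 of 23 genes was lower and 2 were higher (13% called). PVR, the poliovirus receptor and a ligand of immune receptors, had 218.5 ± 0.516 CPM in resistant and 160.9 ± 26.01 CPM in control cells (SD, n = 3 each; adjusted p = 0.00264 in edgeR), and it overlaps CEACAM19. BCL3, a regulator of NF-kappaB, was lower (log2FC -0.55, SE 0.15, adjusted p = 0.00412 in edgeR). BCAM, a laminin receptor, was higher (log2FC 0.53, SE 0.18, adjusted p = 0.0249 in edgeR), with the call lost in 4 of 15 alternatives.

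**Figure D3:**
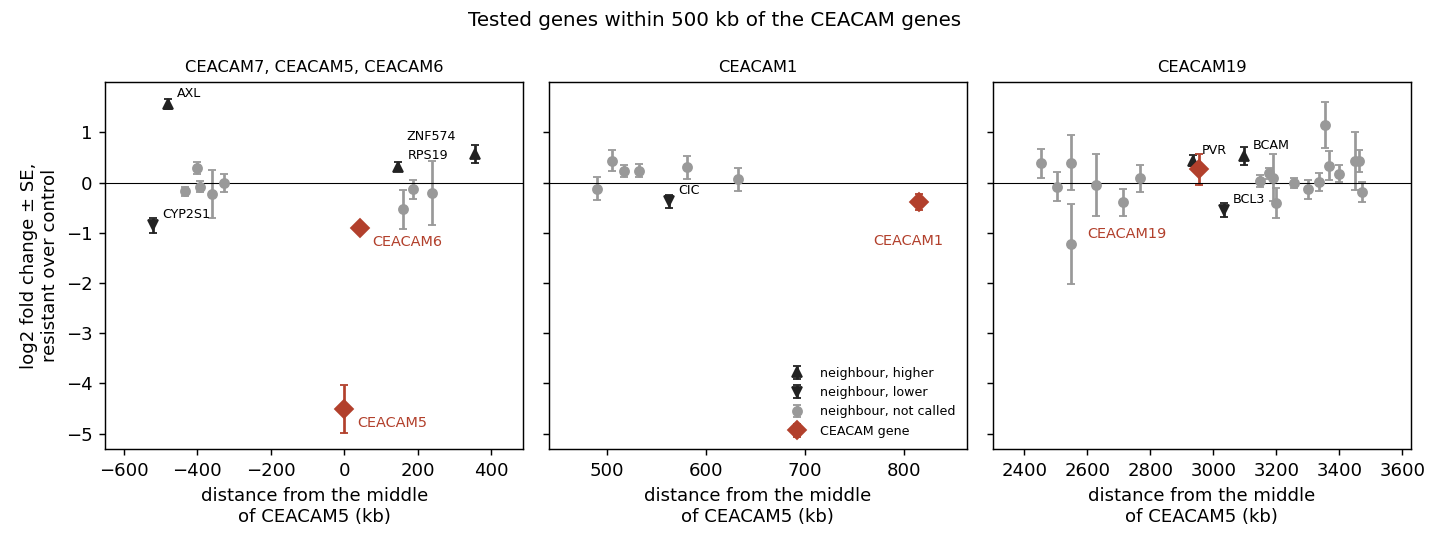
Log2 fold change with SE, resistant over control (vertical axis), of tested genes within 500 kb of a CEACAM gene against the distance of their middle from the middle of CEACAM5 in kb (horizontal axis). CEACAM5, chosen with this contrast known, is at -4.51, and the 8 called neighbours point both ways.

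CEACAM1 passes signals through phosphatases and kinases bound to its tail, and 9 of 10 listed partners were tested. The insulin receptor gene INSR was lower, at 46.8 ± 4.62 CPM in resistant and 82.8 ± 18.9 CPM in control cells (SD, n = 3 each; log2FC -0.81, SE 0.16, adjusted p = 0.000123 in edgeR). The adaptor SHC1 was called lower (log2FC -0.28) and EGFR higher (log2FC 0.28), but these calls were lost in 6 and 4 of 15 alternatives. The phosphatase genes were not called, with PTPN6 (SHP-1) at 14.1 ± 2.79 CPM in resistant and 19.98 ± 6.85 CPM in control cells and PTPN11 (SHP-2) at 348.4 ± 29.7 and 298.3 ± 36.4 CPM (SD, n = 3 each). HAVCR2 (TIM-3), a CEACAM1 ligand of T cells, did not pass the filter. The 9 partners had a median log2FC of -0.04, with 2 called lower (22.2%, against 12.3% of all tested genes) and 1 called higher (11.1%, against 11.7%).

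Of the ligands and binding partners of carcinoembryonic antigen, 6 of 9 were tested, and the median log2FC was 0.20, with 2 called higher (33.3%, against 11.7% of all tested genes) and 1 lower (16.7%, against 12.3%). The matrix protein fibronectin, FN1, was lower (log2FC -0.79, SE 0.09, adjusted p = 2.78e-09 in edgeR). The integrin subunit ITGB1 was higher, at 1054 ± 44.1 CPM in resistant and 650.1 ± 46.5 CPM in control cells (SD, n = 3 each; adjusted p = 5.55e-08 in edgeR). ITGAV was also called higher (log2FC 0.29), with the call lost in 4 of 15 alternatives. LGALS3, the glycan-binding galectin-3, had 167.9 ± 21.8 CPM in resistant and 164.2 ± 10.7 CPM in control cells and was not called. CD209, a dendritic cell receptor, was at 0 in all libraries.

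None of the 11 transcription factors listed for CEACAM promoters was called in DESeq2, limma-voom or edgeR, which called 24.1% of all tested genes. At a looser threshold, an unadjusted p under 0.05 in edgeR, 1 of the 11 factors passed. Their median log2FC was -0.01. USF1, which binds E-boxes, was at 5.71 ± 1.46 CPM in resistant and 9.83 ± 1.73 CPM in control cells, without overlap but not called (log2FC -0.77, SE 0.40). Its relative USF2 was at 118.9 ± 10.9 and 113.8 ± 11.2 CPM, and SP1 at 321.5 ± 18.6 and 295.2 ± 7.18 CPM. TFAP2A was at 2.48 ± 0.934 and 6.71 ± 2.37 CPM (log2FC -1.37, SE 0.54). Like USF1 it lay lower without overlap, while SP1 and SOX9 lay higher without overlap. Of all tested genes, 18.9% lay lower and 19.2% higher in this way. Of the 3 splicing factors known to set the CEACAM1 tail, HNRNPL, HNRNPA1 and HNRNPM, 0 were called in edgeR, DESeq2 or limma-voom. In edgeR 1 of the 3 had an unadjusted p under 0.05. The share of all tested genes at an unadjusted p under 0.05 was not counted, so nothing is read from the 1 in either list.

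CEACAM5 and CEACAM6 need a GPI anchor to reach the surface. Of 29 genes of GPI anchor synthesis 27 were tested, and 5 were called lower and 0 higher in edgeR (18.5% lower, against 12.3% of all tested genes; 5 called in DESeq2 and 6 in limma-voom). The list's median log2FC was -0.19. At an unadjusted p under 0.05, 8 of 27 passed. The share of all tested genes at that looser threshold was not counted, and nothing is read from the 8. The calls of PIGT and PGAP3 were lost in 2 of 15 alternatives each, and both were lost without resistant replicate 2, which leaves 3 of these 5. DPM3, a stabilising subunit of the enzyme that makes the mannose donor, was at 6.61 ± 0.443 CPM in resistant and 17.3 ± 4.59 CPM in control cells (SD, n = 3 each; adjusted p = 0.00215 in edgeR). PIGV, a mannosyltransferase, had a log2FC of -1.33 (SE 0.37) and PIGS, a subunit of the transamidase that attaches the anchor, of -0.65 (SE 0.17).

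Other proteins on GPI anchors did not share one direction, with 3 of 14 tested lower (21.4%, against 12.3% of all tested genes) and 4 higher (28.6%, against 11.7%). The complement inhibitor CD59 was higher, at 380.4 ± 10.2 CPM in resistant and 220.6 ± 38.8 CPM in control cells (SD, n = 3 each; adjusted p = 2.85e-07 in edgeR). The urokinase receptor PLAUR (log2FC 1.30, SE 0.19) and the prion protein gene PRNP (log2FC 0.58, SE 0.09) were also higher, as was NT5E. The lower ones were the ephrin genes EFNA5 (log2FC -0.81, SE 0.19) and EFNA1 (log2FC -1.22, SE 0.31) and the protease inhibitor gene RECK (log2FC -1.29, SE 0.46). The call of EFNA1 was lost without control replicate 3, and that of RECK in 4 of 15 alternatives.

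Among surface antigens and epithelial genes of gastrointestinal carcinomas, 6 of 13 tested were lower and 1 higher (46.2% lower, against 12.3% of all tested genes), with a median log2FC of -0.39. Of the lower ones, CDH1 lost its call with limma-voom, without resistant replicate 1 and without control replicate 1, and MUC1 lost its call without control replicate 1, which leaves 4 of these 6 there. LGALS4, a galectin of the gut epithelium, was at 77.2 ± 14.7 CPM in resistant and 158.9 ± 19.4 CPM in control cells, and the intestinal cadherin CDH17 at 117.3 ± 12.05 and 210.7 ± 24.6 CPM (SD, n = 3 each). Their log2FC were -1.05 (SE 0.13) and -0.85 (SE 0.11), with adjusted p of 3.48e-08 and 1.72e-07 in edgeR. The claudin CLDN4 was the gene called higher (log2FC 0.95, SE 0.10, adjusted p = 1.82e-09 in edgeR). Of genes of the bile canaliculus, where CEACAM1 lies in hepatocytes, edgeR called 4 of 11 lower (36.4%, against 12.3% of all tested genes) and 3 higher (27.3%, against 11.7%), and the median log2FC was -0.30. The peptidase DPP4 was lower, at 48.0 ± 9.06 CPM in resistant and 111.0 ± 6.94 CPM in control cells (SD, n = 3 each; adjusted p = 1.3e-08 in edgeR). The phospholipid flippase ATP8B1 was lower (log2FC -0.91, SE 0.17) and the membrane linker EZR higher (log2FC 0.42, SE 0.09).

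**Figure D4:**
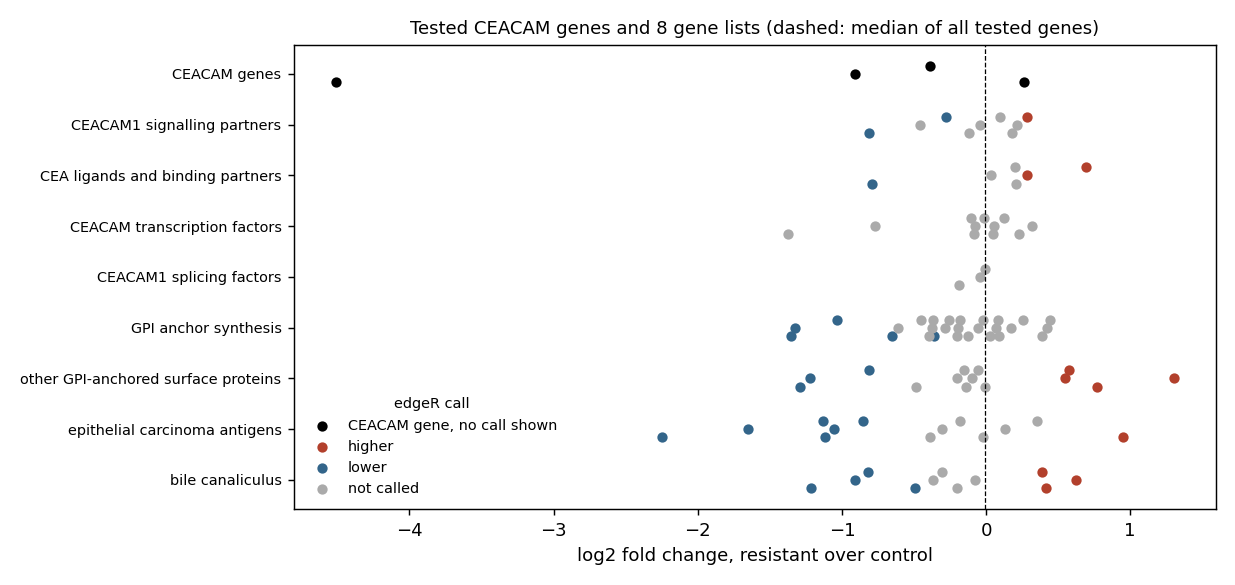
Log2 fold change, resistant over control (horizontal axis), of the 4 tested CEACAM genes and of the tested genes of 8 lists (rows), with black for the CEACAM genes and, in the lists, red for genes called higher, blue for lower and grey for not called in edgeR, and a dashed line at the median of all tested genes. No transcription or splicing factor is called, and 6 of 13 epithelial carcinoma antigens are called lower.

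The genes most like CEACAM5 across the 6 libraries, by Pearson correlation of log2 CPM, were ATXN1 (r = 0.998), NUMA1 (0.997), ARHGEF2 (0.995) and HEY1 (0.995). For CEACAM6 they were DDIT3 (0.998), IL1R1 (0.998), FIGNL1 (0.997) and KAT6B (0.997), and for CEACAM1 MOB2 (0.998), ARMC7 (0.989), C7orf31 (0.988) and POLA2 (0.985). These correlations are a description, since the libraries form 2 groups and each gene was picked as the best of 10800. For CEACAM5, with 4, 0 and 8 counts in resistant replicates 1, 2 and 3, the order also rests on differences of a few counts. An r of 0.9 or more was reached by 647 genes (5.99%) for CEACAM5, 847 (7.84%) for CEACAM6 and 115 (1.06%) for CEACAM1.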

How the data were processed

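Per the labels, total RNA was extracted with Trizol and Direct-zol columns and made into libraries by the EasyRNA-seq protocol. Trimmomatic, HISAT2 and Bowtie2 are named in the submitters' processing notes. The counter, build, annotation and strand setting were not given in the sources used here. The authors deposited whole-number counts per gene symbol, without normalization. Date-like entries stood in place of 27 symbols, which were restored from the Entrez ID. Among counts of 1 to 20, 81.8 to 88.5% were even. Whether both mates of a pair were counted is not stated; if so, intervals on counts, which cover counting error only, are too narrow.

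After filterByExpr and TMM scaling, genes were tested by edgeR 4.0.16 (quasi-likelihood F test, R 4.3.3) on the group alone, with Benjamini-Hochberg adjustment over 10804 genes at 0.05. The test was checked on simulated counts. The SE is the size of the log2FC over the square root of F. Alternatives were other scalings and filters, DESeq2 1.42.0, limma-voom (limma 3.58.1), a replicate block, halved counts, other distances and leaving out each library. Exon lengths (coding transcripts of the basic set) and spans are from GENCODE 29, where 19133 symbols were found once. Named were the members, other family genes with a count, up to 3 called genes per list, up to 10 called neighbours and the 4 genes most like each of 3 members; other genes named were chosen after their values were seen. Members, lists and tests were chosen with earlier results of these data known. Alignments used Biopython 1.88, figures matplotlib 3.10.9 in Python 3.11.15.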

Additional observations from a re-analysis of the deposited data

How the results depend on the processing

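Leaving out 1 library gave log2FC of -5.33 to -3.94 for CEACAM5, -0.996 to -0.85 for CEACAM6, -0.48 to -0.29 for CEACAM1 and 0.07 to 0.48 for CEACAM19. The other 9 alternatives gave -5.15 to -4.47, -0.93 to -0.89, -0.41 to -0.37 and 0.20 to 0.28. CEACAM7 had no value except without the filter. Called genes near the loci numbered 8, and 6 to 8 with 1 library left out, 5 within 250 kb and 15 within 1000 kb. Over all genes 2601 were called, 2001 to 2261 with 1 library left out and 2394 to 2690 otherwise. With the replicate number as a block, 2518 genes were called and the log2FC were -4.53 for CEACAM5 and -0.91 for CEACAM6. The labels do not say whether equal numbers pair the libraries. Deviations of equal-numbered libraries correlated at -0.02, 0.03 and -0.01, and those of unequal numbers at -0.06 to 0.06. With 3 libraries per group, these values cannot decide whether any were paired. Depth limits CEACAM5 in resistant cells, CEACAM7 and the silent family genes. The cause of these shifts was not tested.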
